A study of Homo sapiens with 8 samples.

Results

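The miR-135 family was followed through 8 small RNA libraries of 4 Dicer genotypes, all from the established human embryonic stem cell line H1. Its members here are 4 mature miRNAs, the 5p and 3p arms named miR-135a and miR-135b, of 594 miRNAs in the deposited table. They were chosen by measured values, the changes of RPM against the wild type: miR-135a-5p lay within 2-fold of the wild type in cells with the Dicer substitution S1344L, while the 3p arms lay higher. A further row of the family, miR-135a-2-3p, is the 3p arm of a different miR-135a gene copy and is described beside them. The groups were wild-type cells, cells labelled homozygous for Dicer S1344L, cells labelled hemizygous for Dicer S1344L, and Dicer-null cells, with 2 libraries each from RNA samples described as biologically independent. All groups are H1 cells. The S1344L lines were made by CRISPR-Cas9 editing, and the labels name neither the clones behind each genotype nor the alleles other than S1344L.

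Dicer cuts the loop from a miRNA hairpin and so frees a 5p and a 3p strand. Its RNase IIIb domain cuts the 5p strand and its RNase IIIa domain, in which S1344 lies, cuts the 3p strand. One strand of the duplex, the guide, is usually kept in Argonaute, and the other, the passenger, is mostly discarded. In the miR-135 family the 5p strand is the guide. It is known for repressing APC, the scaffold protein that restrains Wnt signalling, and miR-135b has been linked to the formation of neuroectoderm from human embryonic stem cells.

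The mature strands are printed because the 5p guides are nearly identical while the 3p strands are not, with the seed (bases 2 to 8, which pair with targets) in capitals. They come from RefSeq on GRCh38.p14, in which 533 of the 594 names matched 1 sequence.
miR-135a-5p: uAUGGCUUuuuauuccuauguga
miR-135b-5p: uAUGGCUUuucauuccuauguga
miR-135a-3p: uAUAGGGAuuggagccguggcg
miR-135a-2-3p: aUGUAGGGauggaagccaugaa
miR-135b-3p: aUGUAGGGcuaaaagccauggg
The guides of 23 bases share the seed AUGGCUU and are identical at 22 positions. They differ by U11C, counted from the 5′ end of miR-135a-5p, which lies outside the seed. No other miRNA of the table with a RefSeq sequence carries that seed. By annotated seed, the 3p strands of 22 bases fall into a pair and a single. miR-135a-2-3p and miR-135b-3p share the seed UGUAGGG, are identical at 17 positions and differ by A9C, G11A, G12A, A21G and A22G. The annotated seed of miR-135a-3p, AUAGGGA, is shared by 0 other miRNAs of the table. All of these 3p strands hold UAGGG, which starts 1 base nearer the 5′ end in miR-135a-3p than in the pair. Part of the seed difference is thus an offset of the annotated 5′ ends. The strands differ in annotated length by at most 1 base. This alone does not make the levels of the arms comparable, because ligation preferences and reads with other ends are not shown by the sources used here. The sources used here do not give the rule for assigning reads that fit both guides.

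The hairpins are printed because the miR-135a guide can come from either of a pair of genes, with both mature strands in capitals.
MIR135A1: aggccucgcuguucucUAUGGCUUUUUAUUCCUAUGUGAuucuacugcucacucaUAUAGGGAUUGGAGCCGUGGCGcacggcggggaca
MIR135A2: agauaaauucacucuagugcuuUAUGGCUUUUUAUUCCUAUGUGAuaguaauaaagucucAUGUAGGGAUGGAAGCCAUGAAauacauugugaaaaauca
MIR135B: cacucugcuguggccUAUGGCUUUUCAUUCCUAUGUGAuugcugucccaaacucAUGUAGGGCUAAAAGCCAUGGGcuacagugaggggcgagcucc
MIR135A1 lies at chr3:52294219-52294308 on the minus strand, within an intron of the same-strand non-coding gene GLYCTK-AS1 in GENCODE release 29. MIR135A2 lies at chr12:97563812-97563911 on the plus strand, within an intron of the same-strand non-coding gene RMST, a neural-lineage transcript, and opposite an exon of AC018659.2. MIR135B lies at chr1:205448302-205448398 on the minus strand, within an intron of the same-strand coding gene LEMD1. The miR-135a-5p sequence occurs once in each miR-135a hairpin, so its reads cannot be divided between the loci, while each 3p strand names its own locus. Between the arms lie 16, 15 and 16 bases in MIR135A1, MIR135A2 and MIR135B. The median over 140 hairpins of the table with both arms at 1 RefSeq locus is 16, with quartiles of 14 and 17, so the loops of the family are of ordinary length. In the minimum free energy folds, the first 4 bases of each 5p and each 3p strand are paired in all 3 hairpins. Both guides begin with U, as do 85 of 203 5p arms with a sequence (41.9%).

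The libraries held between 1814568 and 2725756 miRNA reads in the wild-type and homozygous groups, 1000101 and 1833057 in the hemizygous group, and 165317 and 137655 in the null group. Levels are in RPM, which are reads per 1000000 of the denominator that the authors used for that library. This denominator is not the miRNA total: reads on miRNAs, divided by it, gave 2.09 to 2.43 for wild-type and homozygous libraries, 0.729 and 2.42 for hemizygous libraries, and 0.118 and 0.183 for null libraries. Hemizygous replicate 1 therefore stands apart, with miRNAs a median of 1.94 on the log2 scale below replicate 2. Each level is given both in RPM and as a share of the miRNA reads of its library. Fewer cells, less RNA per cell and fewer miRNAs per cell cannot be told apart from either scale. Of the embryonic stem cell miRNAs, the miR-302 cluster with miR-367 and the miR-371-373 cluster, all 8 listed arms were measured. Together they held 38.0% to 39.7% of the miRNA reads of wild-type libraries, and 45.6% to 52.3% of those of mutant libraries. Of 12 listed markers of neural, muscle, liver, blood and connective tissue, 8 were measured and 4 were not analysed here. They held 0.687% to 0.860% of wild-type, 1.11% to 1.20% of homozygous, 1.19% to 1.65% of hemizygous and 0.551% to 0.566% of null miRNA reads, and their part in the results was not tested. The neuronal miR-124-3p, at 13930 RPM in the wild type, was the most abundant of them.

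miR-135a-5p was the most abundant arm of the family in every library. It stood at 13649 and 17319 RPM in wild-type libraries, 25292 and 22212 with the homozygous substitution, 6728 and 24742 with the hemizygous one, and 1122 and 1378 without Dicer. The homozygous libraries lay above both wild-type libraries, the hemizygous libraries lay on either side of them, and both null libraries lay below all others. By group mean it ranked 20 in the wild type, 19 in each S1344L genotype and 18 in null cells among the 594 miRNAs. As a share of miRNA reads, miR-135a-5p took 0.654% and 0.743% in wild-type libraries, 1.04% and 1.02% with the homozygous substitution, 0.923% and 1.02% with the hemizygous one, and 0.950% and 0.752% without Dicer. On this scale every library of the 3 mutant genotypes lay above both wild-type libraries, and the hemizygous libraries came together. Its mean share was 1.48 times the wild type in homozygous, 1.39 times in hemizygous and 1.22 times in null cells. How many other miRNAs lay apart between groups in these ways was not counted.

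miR-135b-5p, the guide of the third locus, was lower than miR-135a-5p in every library. It stood at 7527 and 8741 RPM in wild-type libraries, 6027 and 5083 with the homozygous substitution, 1547 and 6527 with the hemizygous one, and 156 and 256 without Dicer. All 6 mutant libraries lay below both wild-type libraries. Its shares of miRNA reads were 0.361% and 0.375% in wild-type libraries, 0.248% and 0.233% with the homozygous substitution, 0.212% and 0.269% with the hemizygous one, and 0.132% and 0.139% without Dicer. The S1344L shares did not overlap with the wild type above them or the null below them, and overlap was not counted over the other miRNAs.

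**Figure D1:**
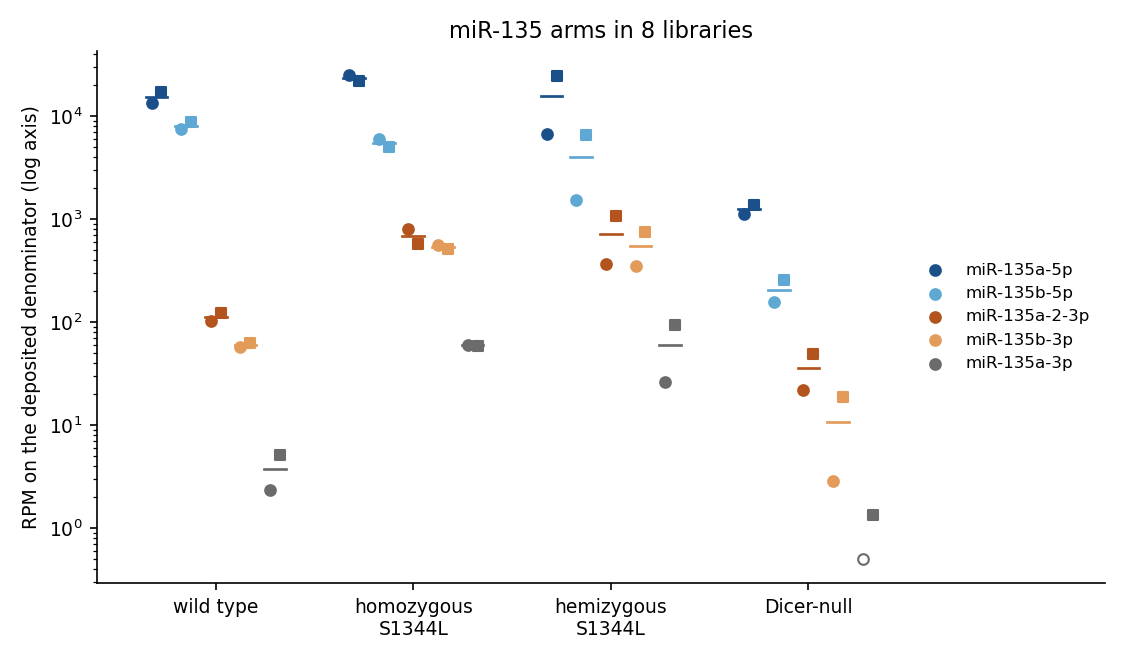
Levels of the 5 miR-135 arms in RPM (log axis) by genotype; circles are replicate 1, squares replicate 2, bars the mean of 2 libraries, and the open circle is a library with 0 reads, drawn at the bottom. The 3p arms lie higher in both S1344L genotypes than in the wild type, while all arms lie lowest in Dicer-null cells.

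**Figure D2:**
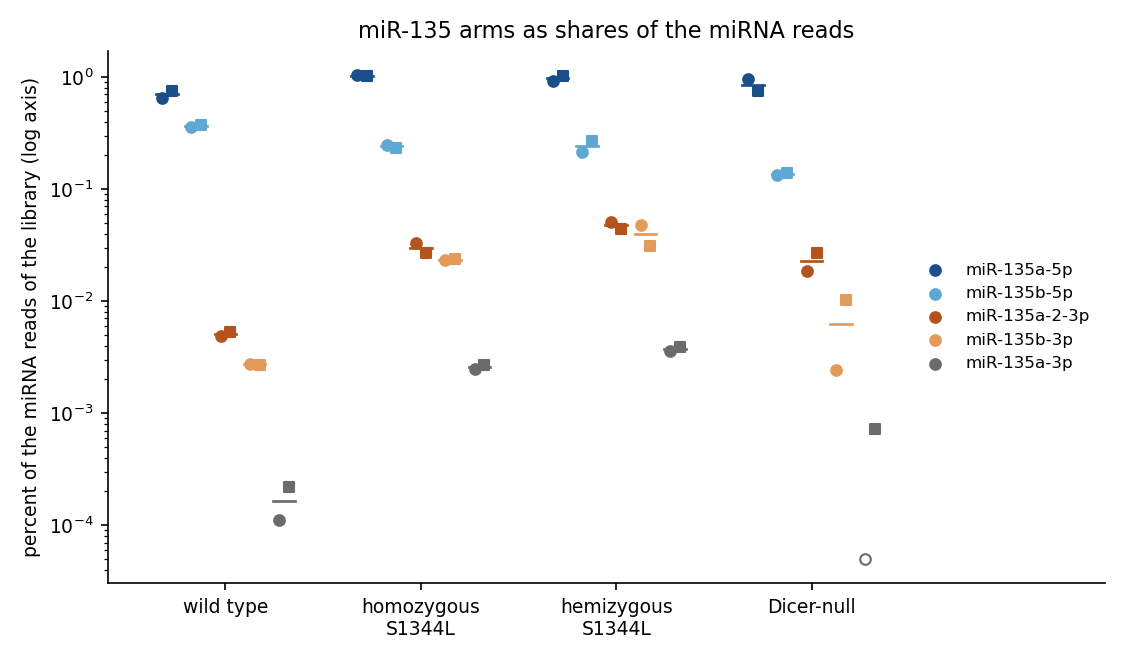
The same arms as percent of the miRNA reads of each library (log axis), with the same symbols. On this scale miR-135a-5p in Dicer-null cells, at 0.950% and 0.752%, lies above the wild-type libraries, and the hemizygous libraries lie close together. Null replicate 2 lies within counting error of wild-type replicate 2.

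Against the wild type, fitted changes of both guides were small beside those of most 5p arms. These comparisons chose the members, so they are described with no test. The fitted log2 fold change of RPM + 1 for miR-135a-5p was 0.62 ± 0.80 (SE, n = 2 libraries per group) in homozygous and -0.25 ± 0.80 in hemizygous cells. Each SE rests on the spread within all groups, the hemizygous libraries included. For miR-135b-5p it was -0.55 ± 0.86 and -1.35 ± 0.86. Of the guides, the value just inside 2-fold is that of miR-135a-5p in homozygous cells and the value just outside is that of miR-135b-5p in hemizygous cells. Of all 594 miRNAs, 41.4% lay within 2-fold in homozygous and 38.9% in hemizygous cells. The hemizygous values rest on libraries far apart: without replicate 1, miR-135a-5p was at 0.69 and miR-135b-5p at -0.31, and without replicate 2 they were at -1.19 and -2.39. Scaling moved the guides across the 2-fold line as well. With median-ratio factors miR-135a-5p was at 1.04 in homozygous and 1.06 in hemizygous cells, and with upper-quartile factors at 1.53 and 1.58. The same factors took the all-miRNA median from -0.05 to 0.36 and 0.82 in homozygous cells, and from -0.92 to 0.33 and 0.83 in hemizygous cells. miR-135a-5p lay above that median, and miR-135b-5p below it, under each of these scalings.

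Among the 109 5p arms whose wild-type mean reached 500 RPM, 23 lay within 2-fold in homozygous, 13 in hemizygous and 12 in both. The median of the 109 was -2.91 in homozygous and -3.77 in hemizygous cells. miR-135a-5p ranked 2 from the top in homozygous and 3 in hemizygous cells, and miR-135b-5p ranked 19 and 18. These ranks are a description: miR-135a-5p was chosen for its small change here, which favoured a high rank. The 109 arms were also admitted by their wild-type level alone. Of the 186 5p arms whose hairpins have both arms in the table, 97 fell and 1 rose in homozygous cells, and 116 fell and 0 rose in hemizygous cells (limma; of all 594 miRNAs 32.0% were called in homozygous cells, 9.93% higher and 22.1% lower, and 34.5% in hemizygous cells, 4.04% higher and 30.5% lower). The 5p arms nearest to miR-135a-5p in both genotypes were miR-195-5p at 0.35 and -0.28, miR-671-5p at 0.06 and -0.19, miR-769-5p at 0.38 and -0.64, miR-30b-5p at 0.17 and -0.66, and miR-33a-5p at 0.14 and -0.63. In the wild type these arms stood between 670 and 8463 RPM, all below miR-135a-5p.

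**Figure D3:**
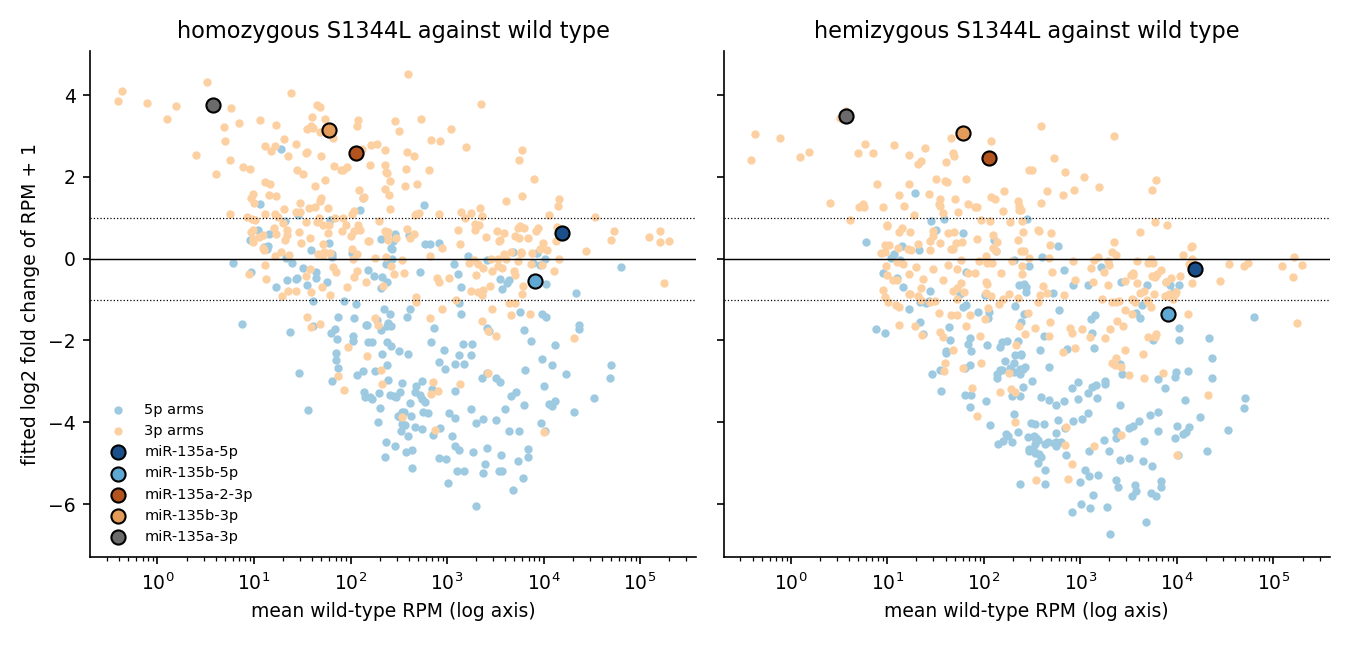
Fitted log2 fold change of every 5p (blue) and 3p (orange) arm against the wild type, by mean wild-type RPM (log axis), in each S1344L genotype; dotted lines mark 2-fold, and outlined points are the miR-135 arms. The miR-135 guides lie above most 5p arms of similar level, and the 3p arms of the family lie among the upper 3p arms.

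The passenger strands were higher in both S1344L genotypes than in the wild type, from very different starting levels. miR-135a-2-3p, the passenger of MIR135A2, stood at 103 and 124 RPM in wild-type libraries, 808 and 581 with the homozygous substitution, 370.2 and 1068 with the hemizygous one, and 22.2 and 49.2 without Dicer. miR-135b-3p, the passenger of MIR135B, stood at 57.6 and 63.3 RPM in wild-type libraries, 566 and 516 with the homozygous substitution, 350.5 and 747 with the hemizygous one, and 2.86 and 18.6 without Dicer. For both strands every S1344L library lay above every wild-type library, and every null library lay below. The members were chosen for higher 3p arms in S1344L cells, and of all 594 miRNAs 87.4% were called lower in null cells. Overlap of libraries was not counted over the other miRNAs. miR-135a-3p, the passenger of MIR135A1, rested on few reads: 3 and 6 in wild-type libraries, 57 and 49 with the homozygous substitution, 36 and 71 with the hemizygous one, and 0 and 1 without Dicer. A count of 0 in null replicate 1 allows up to 2.14 RPM. Its levels were 2.34 and 5.13 RPM in the wild type, 60.4 and 58.9 in the homozygous, and 26.2 and 93.8 in the hemizygous libraries.

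Again as a description, fitted log2 fold changes in homozygous cells were 2.59 ± 0.97 for miR-135a-2-3p, 3.14 ± 1.00 for miR-135b-3p and 3.74 ± 0.97 for miR-135a-3p. In hemizygous cells they were 2.47, 3.06 and 3.49, without hemizygous replicate 1 they were 3.23, 3.61 and 4.39, and without replicate 2 they were 1.70, 2.52 and 2.59. From the pooled reads, the RPM of miR-135a-3p was 16.3 times the wild type in homozygous cells, with an exact 95% interval of 8.25 to 36.6, and 13.7 times in hemizygous cells (6.95 to 30.8). Those of miR-135b-3p were 8.99 times (7.55 to 10.8) and 8.14 times (6.85 to 9.74). These intervals cover counting error only and are no test of a rise, because the 3p arms were chosen for lying higher. Those of miR-135a-3p and miR-135b-3p overlap. The 186 3p arms with a partner in the table had a median of 0.75 in homozygous and -0.07 in hemizygous cells, and of them 35 rose and 4 fell in homozygous cells, while 13 rose and 12 fell in hemizygous cells. Of all miRNAs 9.93% and 4.04% were called higher. In null cells the mean share among miRNA reads was 2.19 times the wild type for miR-135a-3p and 2.30 times for miR-135b-3p, with libraries that overlap, and 4.45 times for miR-135a-2-3p, with libraries that do not. Overlap was not counted over other miRNAs. As shares of miRNA reads, the passengers came to 5.85, 8.58 and 15.6 times the wild type in homozygous and 9.26, 14.4 and 22.5 times in hemizygous cells for miR-135a-2-3p, miR-135b-3p and miR-135a-3p.

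The guide stayed the major strand of miR-135b, and of miR-135a with its loci pooled, with a larger minority of 3p reads in mutant cells. Of miR-135b reads, the 3p strand made up 0.760% and 0.719% in wild-type libraries, 8.58% and 9.21% with the homozygous substitution, 18.5% and 10.3% with the hemizygous one, and 1.79% and 6.80% without Dicer. The null values rest on 4 of 223 and 14 of 206 reads, with 95% Wilson intervals of 0.700% to 4.52% and 4.09% to 11.1%. Of miR-135a reads, both 3p strands together made up 0.764% and 0.740% in wild-type libraries, 3.32% and 2.80% with the homozygous substitution, 5.56% and 4.49% with the hemizygous one, and 1.94% and 3.54% without Dicer. The miR-135a and miR-135b shares were alike in the wild type, whereas in each S1344L library the miR-135b share was more than that of miR-135a. miR-135a-3p made up 2.22% and 3.97% of the miR-135a passengers in the wild type and between 6.62% and 9.21% in the S1344L libraries. The 95% interval of wild-type replicate 2, from 1.83% to 8.40%, overlaps with those of all 4 S1344L libraries. That of wild-type replicate 1, from 0.759% to 6.33%, overlaps with replicate 1 of each S1344L genotype only. It lies below homozygous replicate 2 (7.04% to 12.0%) and hemizygous replicate 2 (6.45% to 10.1%).

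**Figure D4:**
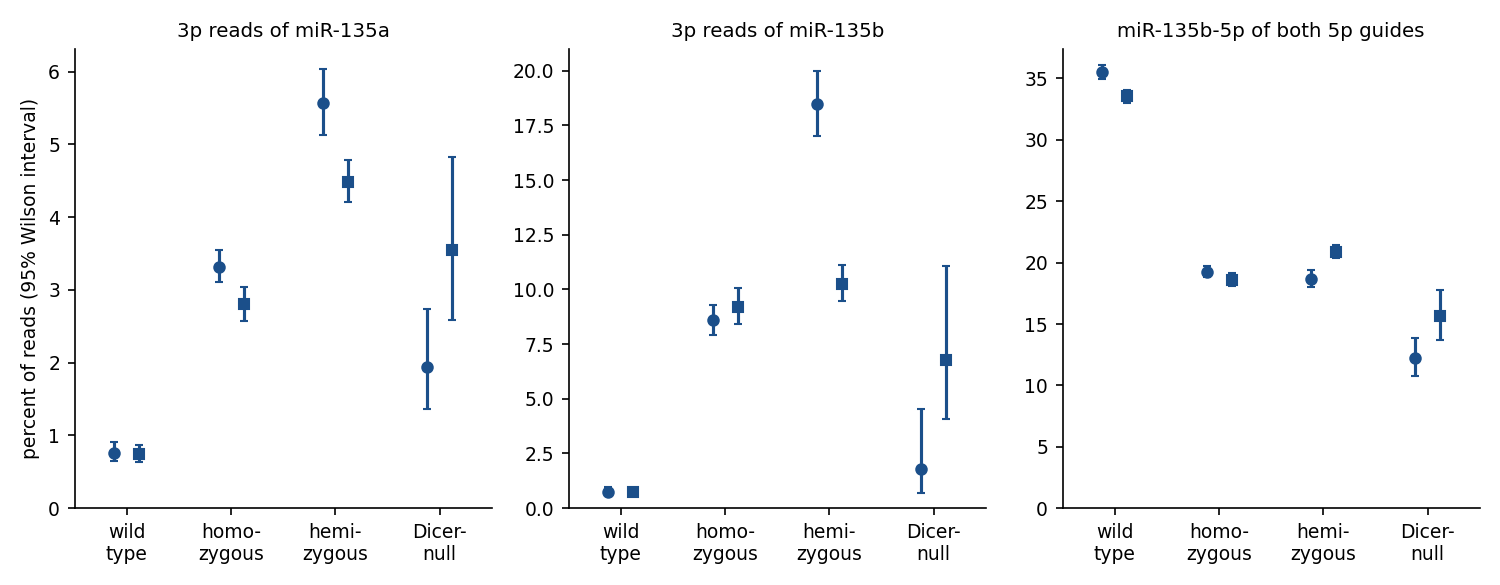
Percent of reads per library that are 3p reads of miR-135a (both loci), 3p reads of miR-135b, and miR-135b-5p among both guides, with 95% Wilson intervals; circles are replicate 1 and squares replicate 2. Every mutant library lies above the wild type in 3p share of miR-135a, and below it in the share of miR-135b-5p.

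On the log2 scale with 1 RPM added to each arm, the 3p/5p ratio of miR-135b was -7.00 and -7.09 in the wild type, -3.41 and -3.30 in the homozygous, and -2.14 and -3.13 in the hemizygous libraries. That of miR-135a, with miR-135a-3p as its 3p arm, was -12.00 and -11.46, then -8.69 and -8.53, then -7.95 and -8.03. The groups did not overlap for either hairpin, and overlap was not counted over the other hairpins. The changes from the wild type were 3.69 ± 0.64 for miR-135b and 3.12 ± 0.49 for miR-135a in homozygous cells, and 4.41 and 3.74 in hemizygous cells. The median of the 186 hairpins was 3.31 in homozygous and 2.89 in hemizygous cells (80.1% of hairpins were called in homozygous cells, 79.0% toward 3p and 1.08% toward 5p, and 78.5% in hemizygous cells, 76.9% and 1.61%). miR-135b thus ranked 77 and 49 and miR-135a ranked 101 and 62 of 186 from the largest shift toward 3p. With both 3p strands of miR-135a summed, an alternative chosen after seeing the data, its change was 2.04 in homozygous and 2.78 in hemizygous cells. In homozygous cells the ratio of miR-135b, and that of miR-135a by name, lay near the middle of all hairpins, but the summed miR-135a ratio lay below the median of 3.31.

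The balance between the guides, which no library scaling can move, lay further toward miR-135a-5p in every mutant library than in the wild type. For the S1344L libraries this is a description, because the rule used the level of miR-135a-5p in them. No other pairs of guides were set beside it. miR-135b-5p made up 35.5% and 33.5% of the reads of both guides in wild-type libraries, 19.2% and 18.6% with the homozygous substitution, 18.7% and 20.9% with the hemizygous one, and 12.2% and 15.6% without Dicer. miR-135a-5p outnumbered it 1.81 and 1.98 times in the wild type, between 3.79 and 4.37 times in the S1344L libraries, and 7.17 and 5.39 times in the null libraries. The wild-type, S1344L and null values did not overlap. The rule did not use null cells, but it did use the same wild-type libraries. In null cells the log2 of miR-135b-5p over miR-135a-5p was -2.64 ± 0.29 (SD, n = 2) against -0.92 ± 0.09 in the wild type, a difference of -1.71. An exact two-sided permutation test gave p = 0.333, the smallest value that 2 against 2 libraries allow.

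Null cells were compared with the wild type by a test, sharing the wild-type libraries with the comparisons above. On the deposited scale 3 of the 4 members fell (limma, adjusted p under 0.05), against 88.7% of all 594 miRNAs called, 87.4% lower and 1.35% higher. miR-135b-5p was at -5.33 ± 0.86 (n = 2 per group, limma adjusted p = 3.61e-09) and miR-135a-5p at -3.63 ± 0.80 (limma adjusted p = 1.09e-05), lower in 2 of 2 null libraries. The passenger miR-135b-3p was at -2.82 ± 1.00 (limma adjusted p = 0.0056), and without null replicate 1, which had 4 reads of it, it was at -1.64 with adjusted p = 0.216. Without wild-type replicate 2 it was at -2.75 and did not pass either (limma adjusted p = 0.0634). miR-135a-3p, with 1 read in all in null cells and 9 in the wild type, was at -1.57 and did not pass (limma adjusted p = 0.117), although it did without either hemizygous library (adjusted p = 0.0253 for each), which changes the pooled spread. The pooled RPM ratio was 0.127, with an exact interval of 0.00289 to 0.914. miR-135a-2-3p was at -1.74 and did not pass either (limma adjusted p = 0.0801). The median of all miRNAs was -4.60, with miR-135a-5p above it and miR-135b-5p below it. With median-ratio and upper-quartile factors miR-135b-5p was at -0.82 (limma adjusted p = 0.00668) and -0.34 (adjusted p = 0.122), where it no longer passed. For all members but miR-135b-5p the direction held for the deposited denominators only: scaled to own miRNA reads, with the median at -1.16, miR-135b-5p was at -1.43 (limma adjusted p = 0.000617) while miR-135a-5p was at 0.28 (adjusted p = 0.168) and miR-135a-2-3p rose by 2.11 (adjusted p = 0.0011). Among the 109 abundant 5p arms, miR-135a-5p ranked 11 and miR-135b-5p ranked 55 from the top in null cells.

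The arm ratio was also tested in null cells. The reference is the same wild-type libraries against which the members were chosen for higher 3p arms. That choice favoured a low wild-type 3p/5p ratio, and with it a shift toward 3p here, so the p-values carry this limit. miR-135b moved toward 3p by 2.52 ± 0.64 (limma adjusted p = 0.00811), from -7.00 and -7.09 to -5.35 and -3.71. Of all hairpins 37.6% were called, 20.4% with a higher and 17.2% with a lower 3p/5p ratio, and their median change was 0.25. For miR-135a the value by name, 2.06, rests on 0 and 1 reads and on the RPM added. With both 3p strands summed it was 1.86 (limma adjusted p = 0.0206), resting mostly on the 31 and 37 null reads of miR-135a-2-3p. Scaled to own miRNA reads, miR-135b was at 2.28 and no longer passed (limma adjusted p = 0.0664).

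**Figure D5:**
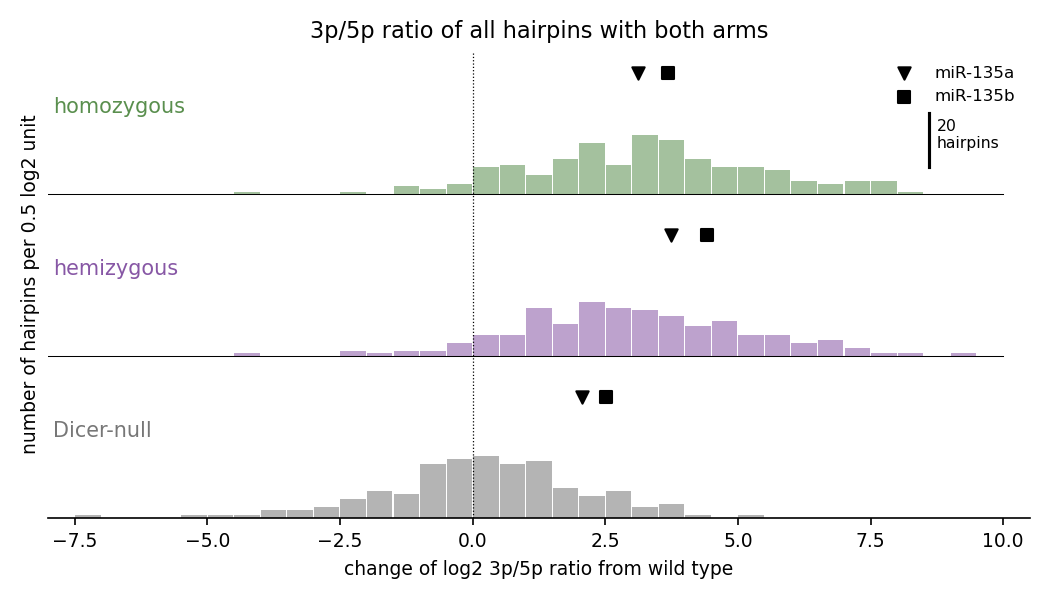
Numbers of hairpins by change of the log2 3p/5p ratio from the wild type, in bins of 0.5, for the 186 hairpins with both arms; the triangle marks miR-135a and the square miR-135b. In homozygous cells both lie near the middle of all hairpins, and in Dicer-null cells both lie above the median; miR-135a there rests on 0 and 1 reads of its 3p arm.

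The S1344L genotypes are set side by side as a description with no test, because values of both chose the members and favoured arms that are alike in them. Hemizygous minus homozygous log2 differences were -0.88 ± 0.80 (SE, n = 2 libraries per group) for miR-135a-5p, -0.80 ± 0.86 for miR-135b-5p, -0.25 ± 0.97 for miR-135a-3p and -0.08 ± 1.00 for miR-135b-3p. The median of all 594 miRNAs was -0.86, and 0% of them were called (limma; 7 at an unadjusted p under 0.05). The hemizygous libraries lay on either side of both homozygous libraries for miR-135b-5p, miR-135a-3p and miR-135b-3p, while for miR-135a-5p replicate 2 lay between the homozygous libraries and replicate 1 below them. Without hemizygous replicate 2 the guides were at -1.82 and -1.84, with 70.0% of all miRNAs called, and without replicate 1 they were at 0.062 and 0.24. The arm ratios differed by 0.62 for miR-135a and 0.72 for miR-135b, toward 3p in hemizygous cells, against a median of -0.26 over the 186 hairpins, of which 0% were called (limma; 5 at an unadjusted p under 0.05).

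Other miRNAs reported to act on APC or Wnt signalling were set beside the guides, as a list chosen with earlier results known. Of 10 listed, 9 were measured, and in homozygous cells 3 fell and 0 rose, in hemizygous cells 5 fell and 0 rose, and in null cells 9 fell. Of all 594 miRNAs, 22.1%, 30.5% and 87.4% were called lower in these comparisons, so the null count is near that of all miRNAs. Their medians were -1.58, -2.34 and -6.11, against -0.05, -0.92 and -4.60 for all miRNAs. The list mixes 5p and 3p arms, whose medians differ in S1344L cells. In the same order, the 186 5p arms with a partner had medians of -2.52, -3.12 and -4.98. The 186 3p arms had 0.75, -0.07 and -4.62. The 5p arms miR-106b-5p and miR-31-5p fell in both S1344L genotypes, to -3.75 and -3.58 in homozygous cells and to -4.71 and -4.22 in hemizygous cells. Named after their values were seen, miR-34a-5p fell too, at -5.18 and -5.80, and miR-27b-3p was at -1.10 in homozygous cells and fell in hemizygous cells, at -2.34. The remaining measured members, also named afterwards, were not called in either S1344L genotype. In homozygous and hemizygous cells miR-200a-3p was at 0.52 and -1.03, miR-142-3p at 0.27 and -0.53, and miR-145-5p at -1.58 and -2.34. miR-21-5p, a growth-promoting miRNA, was at -1.62 in homozygous cells and fell by 2.93 in hemizygous cells. miR-27a-3p was at 0.16 and -0.78. With the miR-106b-5p mean of 20659 RPM, it and miR-21-5p, at 23342 RPM, were the members of the list above miR-135a-5p in the wild type.

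Likeness of pattern was measured as Pearson's r of log2(RPM + 1) over the 8 libraries, among 491 other miRNAs with at least 50 RPM in 1 group. The nearest to miR-135a-5p were miR-590-3p at 1.00, miR-92a-3p at 0.999 and miR-643 at 0.999, against a median of 0.910. Those nearest to miR-135b-5p were miR-652-3p, miR-9-5p and miR-302c-3p, at 0.997 each. The nearest to miR-135a-3p were miR-503-3p at 0.993, then miR-135a-2-3p and miR-30b-3p at 0.991. Those nearest to miR-135b-3p were miR-15a-3p, miR-219a-2-3p and miR-135a-2-3p, at 0.989, 0.989 and 0.988. All miRNAs share the library denominators, and the low null libraries raise every r. As shares of miRNA reads, the nearest to miR-135a-5p was let-7a-3p at 0.980, with a median of -0.141, and the nearest to miR-135b-3p was miR-135a-3p at 0.973. For miR-135a-5p none of the 3 nearest on the first scale was named as a 5p arm, and its twin guide was not among them on either scale. The r values include the wild-type and S1344L levels that chose the members, and most 5p arms lay lower in S1344L cells. The neighbours are therefore a description and were not tested.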

How the data were processed

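Per the labels' protocols, total RNA from H1 cells was given spike-in RNAs, ligated to a 3′ linker and a 5′ adaptor, gel-purified, amplified and sequenced as single-end reads. Per the submitters' processing notes, cutadapt, limma and the hg38 build were used; the sources used here do not give the aligner, the counting method or the miRNA annotation. The deposited log2 values are log2 of reads plus 0.5 per 1000000 of a denominator per library. Reads were computed back (largest distance from a whole read 7.31e-09) and divided by that denominator to give RPM; 0 columns of other samples were present.

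limma 3.58.1 in R 4.3.3 was fitted to log2(RPM + 1) of all 594 miRNAs, which all passed a filter of 5 RPM in 2 libraries, with 1 mean per group over 8 libraries, moderated variances with a trend and Benjamini-Hochberg adjustment, called at 0.05. Errors therefore pool all groups. With only the 4 libraries compared, calls over all 594 miRNAs against the wild type went from 190 to 370 in homozygous cells. In hemizygous cells they went from 205 to 110. The 3p/5p ratio was fitted over 186 hairpins paired by name. The script was tested on simulated data. Hairpins were folded with RNAfold 2.7.2. In every group replicates varied by more than counting error (chi-square over degrees of freedom 10.6 to 85.8). The labels name no molecular identifiers, so Wilson, exact and Poisson intervals and the limit of 3 reads for a count of 0 cover counting error only. p-values measure the spread between these libraries. Whether libraries overlap was described for the miR-135 arms only and was not counted over all miRNAs or hairpins.

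The members, lists, alternatives and tests were chosen with earlier results of these data known. Named are the miR-135 arms, up to 4 members of the Wnt list by wild-type RPM, and the 5 nearest 5p arms with at least 500 RPM. The 3 most alike miRNAs per member are named too. The list's miR-27a-3p ranks 4 by wild-type RPM, and the measured members below it were named after their values were seen. Alternatives were other pseudocounts, filters, scalings, fits of 4 libraries, leaving out each library, and a replicate block.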

Additional observations from a re-analysis of the deposited data

How the results depend on the processing

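The test of null against wild type called 3 of 4 members, and scaled to own miRNA reads it called 1, while calls over all miRNAs went from 527 (8 higher, 519 lower) to 359 (70 and 289), 287 (98 and 189) with median-ratio and 260 (139 and 121) with upper-quartile factors. In the order own reads, median-ratio, upper-quartile, the null values turned to 0.28, 0.89 and 1.38 for miR-135a-5p, 0.14, 0.42 and 0.66 for miR-135a-3p, 0.84, 1.43 and 1.89 for miR-135b-3p, and 2.11, 2.71 and 3.19 for miR-135a-2-3p, while miR-135b-5p stayed lower at -1.43, -0.82 and -0.34, the last not called. The count of members lay between 2 and 4 when 1 library was left out, at 2 without wild-type replicate 2 or null replicate 1. Both hairpins passed in the null arm ratio; 1 passed with a pseudocount of 0.5 RPM, with the deposited log2 values as given and with only the 4 libraries compared, and 0 passed scaled to own reads or with median-ratio factors, where miR-135a turned to -0.14 and -0.47. Over all hairpins 70 were called, 117 with a pseudocount of 5 RPM, 37 scaled to own reads, 32 with median-ratio factors and 42 without wild-type replicate 1.

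Between the S1344L genotypes, whose values chose the members, the fit called 0 members, and between 0 and 2 when 1 library was left out, which is a description and supports no call. Own-read, median-ratio and upper-quartile scaling turned miR-135a-3p to 0.51, 0.62 and 0.64, miR-135b-3p to 0.71, 0.82 and 0.84, and miR-135a-2-3p to 0.67, 0.78 and 0.80; the last 2 scalings turned miR-135a-5p to 0.025 and 0.046 and miR-135b-5p to 0.10 and 0.12. Without hemizygous replicate 1 the values were 0.062, 0.24, 0.65, 0.47 and 0.64 for miR-135a-5p, miR-135b-5p, miR-135a-3p, miR-135b-3p and miR-135a-2-3p, without replicate 2 they were -1.82, -1.84, -1.15, -0.62 and -0.89, and without homozygous replicate 1 the last was 0.11. The number of members within 2-fold of the wild type went from 2 to 1 with median-ratio or upper-quartile factors in homozygous cells, and from 1 to 2 scaled to own reads in hemizygous cells, where it lay between 0 and 2 when 1 library was left out. The cause was not tested.

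A replicate block left the counts of called members at 3 for null cells and 0 between the S1344L genotypes, and calls over all miRNAs went from 527 to 532. Deviations of same-numbered libraries correlated between -0.10 and 0.61 over the pairs of groups, and nothing in the labels says that a number marks a shared batch. Count tests with edgeR and DESeq2, planned at first, were not run, although whole reads could be computed back from the deposited values. Depth limits miR-135a-3p most, with at most 6 reads per wild-type and 1 per null library.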
